A study of Mus musculus with 9 samples.

Results

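The insulin-like growth factor (IGF) family was followed at the level of its messenger RNA in ATDC5 cells, a mouse chondrogenic line in which cartilage differentiation can be followed in culture. The 10 family genes were picked by gene symbol from a table of 26202 genes. They are the ligands Igf1 and Igf2, the receptors Igf1r and Igf2r, and the binding proteins Igfbp2, Igfbp3, Igfbp4, Igfbp5, Igfbp6 and Igfbp7. All 10 passed the filter on low values, an average over the 9 libraries of 1 CPM or more (CPM being reads scaled to library size), as did 12868 genes in all. The libraries formed 3 groups of 3, which were acetate, ethanol and control. All of them came from ATDC5 cells, with no genetic change named in the labels, in DMEM/F-12 with serum, to which ascorbate, beta-glycerophosphate and a supplement of insulin, transferrin and selenium had been added, so insulin was present in every group. The sources used here give no doses or exposure times and do not say what the controls received. The series asks whether acetate, the end product of ethanol oxidation, could mediate effects of ethanol on bone and on chondrocyte differentiation. Nothing in the labels states that replicates were separate cultures, so p-values measure the spread between these libraries, which may be technical.

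IGF-I and IGF-II are small secreted peptides that resemble proinsulin and act through the IGF-I receptor, a tyrosine kinase that signals through IRS adaptors to PI3 kinase and AKT and to MAP kinases. The IGF-II receptor, which is also the cation-independent mannose 6-phosphate receptor, takes IGF-II up for breakdown in lysosomes. The binding proteins hold the ligands outside the cell, where they can block, carry or concentrate them until proteases release them. In the growth plate IGF-I drives chondrocyte enlargement and long bone growth, and the acute response of cells to insulin runs through the same signalling steps.

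Reads recovered from the deposited values numbered 28.7 to 41.9 M per library, and 1 read was worth 0.0231 to 0.0348 CPM. The lowest count behind any family value was 619 reads, for Igfbp7 in an ethanol library. All 13 chondrocyte markers averaged 1 CPM or more, Col2a1, Acan and Sox9 among them, and all 8 osteoblast markers did so too. The chondrocyte markers summed to 5270 to 5947 CPM in acetate, 4822 to 6063 CPM in ethanol and 10301 to 13366 CPM in control libraries. The 8 osteoblast markers summed to 5776 to 8587 CPM in acetate, 5001 to 5797 CPM in ethanol and 7836 to 9158 CPM in control libraries. The markers of adipocytes, skeletal muscle and hepatocytes all averaged under 1 CPM, and so did 5 of 6 endothelial and 6 of 7 macrophage and osteoclast markers, with list sums of at most 2.48 and 2.97 CPM in any library. Of the macrophage and osteoclast markers, Ptprc, Adgre1 and Acp5 averaged under 0.1 CPM. The chondrocyte sums were lower in both exposed groups than in control, and overlapped between acetate and ethanol. The osteoblast sums were lower in ethanol than in control, while those of acetate overlapped both. The part of these sums in the family's differences was not tested. In bulk libraries fewer cells of a type and less RNA per cell cannot be told apart. Acetate replicate 2 stood apart from the other acetate libraries in a way that followed the GC content of the transcripts, so values that move by more than 1.5 times or change their call without it are also given without it.

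Promoter sequences are shown for the 2 binding proteins that were called in the tests below and for Igfbp3, which had the only positive ethanol difference of the family. Each window runs from 250 bases before to 50 bases after the RefSeq transcription start on GRCm38.p6, 5′ to 3′ along the gene's strand. The capitals mark GGGCGG, the core of the GC box, or its reverse complement CCGCCC. The windows are chr1:72824230-72824529 on the plus strand for Igfbp2, chr5:77407996-77408295 on the minus strand for Igfbp7 and chr11:7213874-7214173 on the minus strand for Igfbp3.
Igfbp2: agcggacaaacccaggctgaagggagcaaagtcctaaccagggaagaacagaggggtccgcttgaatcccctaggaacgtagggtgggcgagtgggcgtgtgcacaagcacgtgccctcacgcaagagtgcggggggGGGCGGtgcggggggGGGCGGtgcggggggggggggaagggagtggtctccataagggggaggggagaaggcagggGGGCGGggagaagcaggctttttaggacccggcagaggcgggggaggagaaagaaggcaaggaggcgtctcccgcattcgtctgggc
Igfbp7: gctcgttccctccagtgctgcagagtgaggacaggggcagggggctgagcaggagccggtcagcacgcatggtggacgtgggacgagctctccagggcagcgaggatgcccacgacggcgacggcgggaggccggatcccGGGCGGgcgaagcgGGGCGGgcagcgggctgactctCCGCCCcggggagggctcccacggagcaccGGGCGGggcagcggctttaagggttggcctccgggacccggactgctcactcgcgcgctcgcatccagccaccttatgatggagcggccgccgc
Igfbp3: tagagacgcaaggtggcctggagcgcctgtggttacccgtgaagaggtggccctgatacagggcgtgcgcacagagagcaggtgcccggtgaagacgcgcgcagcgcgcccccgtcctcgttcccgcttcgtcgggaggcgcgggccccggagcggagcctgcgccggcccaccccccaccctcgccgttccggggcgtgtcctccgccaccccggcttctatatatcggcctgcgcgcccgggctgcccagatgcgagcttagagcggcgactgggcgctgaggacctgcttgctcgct
The Igfbp2 window held 3 matches to GGGCGG and the Igfbp7 window 4, counted on both strands, while the Igfbp3 window held none. Over the whole family 4 of 10 windows had at least 1 match, namely Igf1r, Igf2r, Igfbp2 and Igfbp7, against 35.7% of the 32851 RefSeq mouse promoters of the same length. TATAAA, searched on both strands, occurred in 2 of 10 windows, Igfbp4 and Igfbp6, against 13.6% of all promoters. The E-box CANNTG, which reads the same on both strands, occurred in 8 of 10 windows, against 72.3% of all promoters. In the windows shown no E-box overlapped a GGGCGG match. GC content was 67.0% in the Igfbp2 window, 73.3% in the Igfbp7 window and 71.7% in the Igfbp3 window. These matches describe the letters of the windows and are not binding sites.

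Igfbp2 and Igfbp7 were the family genes that passed the test, both lower in ethanol than in control and higher in acetate than in ethanol. A gene was called past the threshold when limma, fitted over all 9 libraries on log2 of CPM plus 1, gave it a Benjamini-Hochberg adjusted p under 0.05 over all 12868 genes tested. In acetate against control 0 of the 10 genes were called, where 1.00% of all tested genes were called. 5 of the 10 had an unadjusted p under 0.05 in that comparison, as did 14.6% of all tested genes, and voom on the recovered reads also called 0. In ethanol against control 2 of the 10 were called, both lower, where 3.93% of all tested genes were called in either direction and 2.45% lower. In acetate against ethanol 2 of the 10 were called, both higher, where 3.73% of all tested genes were called and 2.84% higher. The family's median log2 fold change was -0.08 in acetate against control, beside -0.01 over all tested genes. It was -0.52 in ethanol against control, beside -0.00084, and 0.46 in acetate against ethanol, beside -0.01. The comparisons share libraries, so their values for a gene are not independent.

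In acetate against control the groups did not overlap for 6 genes, of which 3 were higher and 3 lower, where 19.5% of all tested genes did not overlap. In ethanol against control 8 of the 10 genes lay lower in every ethanol library than in every control library, where 23.3% of all tested genes did. In acetate against ethanol 9 of the 10 lay higher in every acetate library than in every ethanol library, where 15.3% of all tested genes did. Igf1r and Igfbp3 were the 2 genes whose ethanol and control libraries overlapped, and Igf1 was the gene whose acetate and ethanol libraries overlapped.

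**Figure D1:**
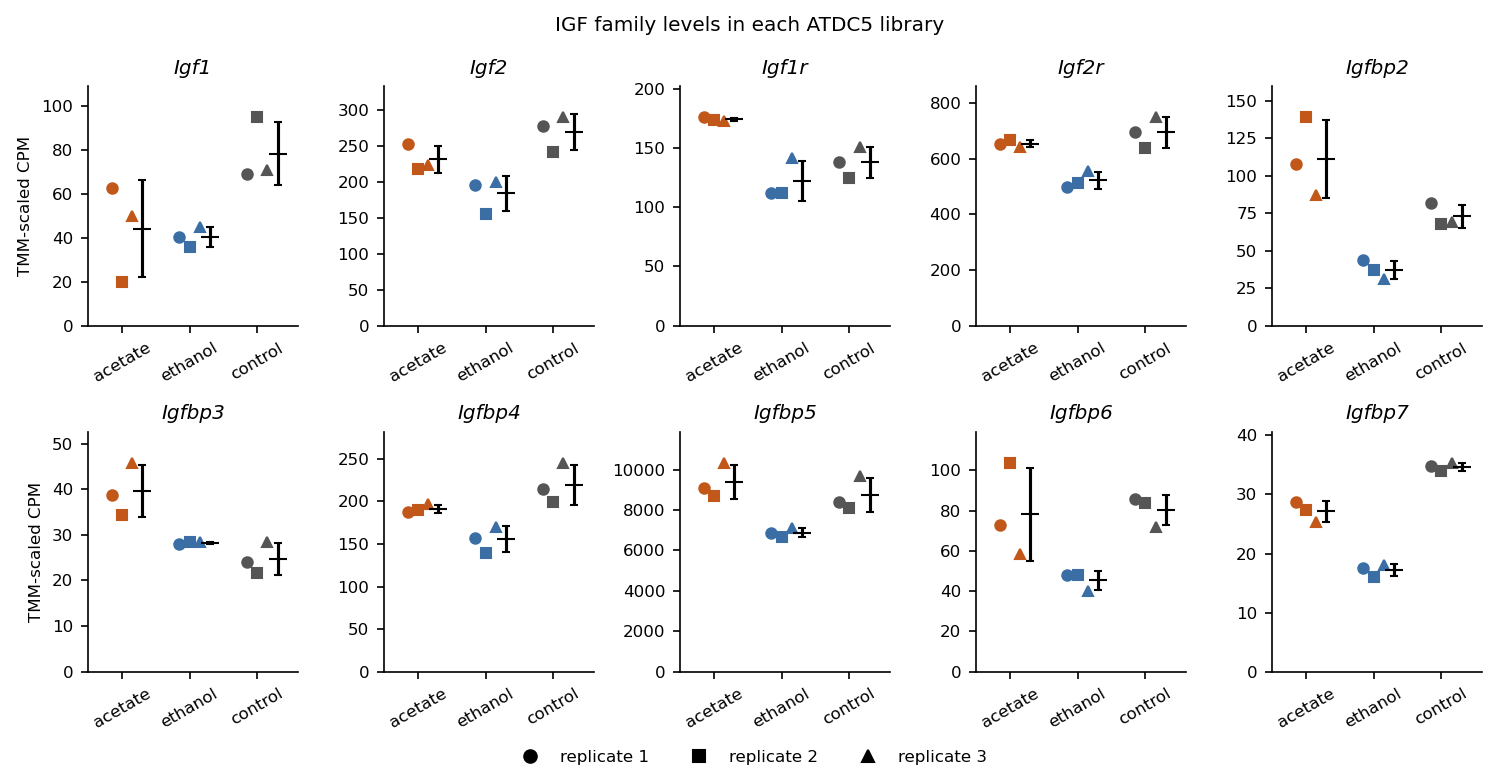
TMM-scaled CPM (y axis, from 0) of each family gene in the acetate, ethanol and control groups, with 1 symbol per library shaped by replicate number and a bar for the mean ± SD of n = 3. All 3 ethanol libraries lie below all 3 control libraries for each gene other than Igf1r and Igfbp3, and acetate replicate 2 (square) is the lowest acetate library for Igf1 and the highest for Igfbp2 and Igfbp6.

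**Figure D2:**
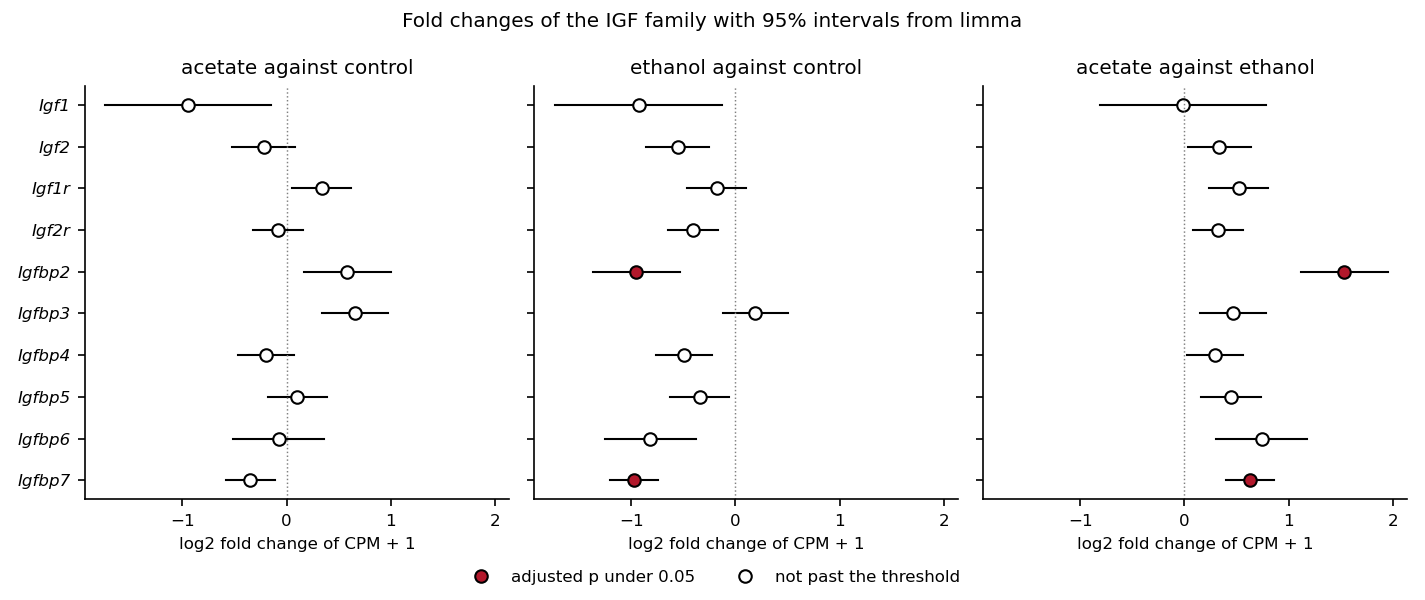
Log2 fold changes of CPM plus 1 (x axis) with 95% intervals from limma over 9 libraries, for the 10 family genes in 3 comparisons, where filled points have an adjusted p under 0.05. Filled points mark Igfbp2 and Igfbp7, negative in ethanol against control and positive in acetate against ethanol, and no point is filled in acetate against control.

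Among the ligands, Igf1, which encodes the main growth-promoting ligand after birth, lies on chromosome 10 (chr10:87858265-87937042, plus strand). It stood at 62.8, 19.7 and 50.0 CPM in acetate libraries, 40.3, 35.9 and 44.9 CPM in ethanol libraries and 69.2, 94.8 and 70.9 CPM in control libraries. Every acetate and every ethanol library was below every control library, and the acetate and ethanol libraries overlapped. The log2 fold change was -0.95 ± 0.35 (SE, limma adjusted p = 0.27) in acetate against control and -0.93 ± 0.35 (adjusted p = 0.20) in ethanol against control, neither past the threshold.

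Acetate replicate 2 lay apart from the other acetate libraries for Igf1. Its difference from their mean was -1.46 log2 units, and the 754 tested genes with less than 40% GC, a class that includes Igf1 at 38.0%, had a median difference of -1.50 in the same library. Without acetate replicate 2 the acetate mean was 56.4 CPM, and acetate against control was -0.46 ± 0.15 (adjusted p = 0.15). Ethanol against control kept its value of -0.93, and its SE was 0.14, since acetate libraries enter that comparison only through the shared variance. Its adjusted p was then 0.0017, past the threshold, within a range of 2.3e-40 to 0.47 over the 24 alternatives tried. The smallest adjusted p in the ranges given here and below came mostly from the fit with replicate number as a block and acetate replicate 2 left out, and are no measure of strength. Acetate against ethanol was -0.02 with all libraries (adjusted p = 0.98), 0.47 without acetate replicate 2 (adjusted p = 0.090) and 0.58 after the GC trend of each library was removed (adjusted p = 0.014), in a range of 8.1e-09 to 1.0 over the alternatives.

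Igf2, the imprinted fetal ligand, lies on chromosome 7 (chr7:142650766-142666816, minus strand). It stood at 252, 217 and 224 CPM in acetate libraries, 196, 156 and 199 CPM in ethanol libraries and 278, 242 and 289.9 CPM in control libraries. The ethanol libraries were the lowest 3 of the 9, and the acetate libraries overlapped with control. Ethanol against control was -0.55 ± 0.13 (adjusted p = 0.056), and acetate against ethanol was 0.33 ± 0.13 (adjusted p = 0.20). H19, the noncoding RNA of the same imprinted domain, 72.6 kb away, averaged 0.0714 ± 0.0650 CPM in acetate, 0.108 ± 0.132 CPM in ethanol and 0.156 ± 0.0890 CPM in control (SD, n = 3 each). That level rests on 0 to 9 reads per library. Igf2os, an antisense transcript that overlaps Igf2 by 7124 bases, averaged 1.33 ± 0.242 CPM in acetate, 1.57 ± 0.682 CPM in ethanol and 1.45 ± 0.346 CPM in control. The library kit was stranded, but the sources used here do not give the strand setting of the counting, so reads of such antisense pairs may not be fully separated.

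Per kilobase of exon, Igf2 exceeded Igf1 in every library. The ratio of the 2 levels was 6.95 to 19.1 in acetate, 7.53 to 8.43 in ethanol and 4.41 to 7.07 in control libraries, with means of 11.3 ± 6.79, 7.88 ± 0.480 and 6.14 ± 1.50 in those groups (SD, n = 3 each). The acetate range overlapped those of ethanol and control, and the highest ratio is that of acetate replicate 2. Without that library the acetate ratios were 6.95 and 7.74, with a mean of 7.35, which is below the ethanol mean. The ethanol libraries all lay above control in this ratio, and it was not tested.

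Of the receptors, Igf1r, the signalling tyrosine kinase (chr7:67952827-68233668, plus strand), had the tightest acetate values of the family. They were 176, 173 and 173 CPM, against 112, 112 and 141 CPM in ethanol libraries and 138, 125 and 151 CPM in control libraries. Every acetate library was above every library of the other groups, while ethanol and control overlapped. The log2 fold change was 0.34 ± 0.13 (adjusted p = 0.27) in acetate against control, -0.18 ± 0.13 (adjusted p = 0.49) in ethanol against control and 0.52 ± 0.13 (adjusted p = 0.058) in acetate against ethanol. With acetate replicate 2 left out the last of these was 0.52 ± 0.12 (adjusted p = 0.023), in a range of 4.6e-08 to 0.24 over the alternatives.

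Igf2r, the receptor that clears IGF-II (chr17:12682406-12769664, minus strand), showed another order. It stood at 654, 666 and 642 CPM in acetate libraries, 497, 512 and 557 CPM in ethanol libraries and 695, 639 and 748 CPM in control libraries. All ethanol libraries were lower than all others, and acetate overlapped with control. Ethanol against control was -0.41 ± 0.11 (adjusted p = 0.070), and acetate against ethanol was 0.33 ± 0.11 (adjusted p = 0.14). Acetate against control was -0.08 ± 0.11 (adjusted p = 0.67), and 0.0052 under quantile scaling. The same scaling gave -0.21 in ethanol against control (adjusted p = 0.35) and 0.22 in acetate against ethanol (adjusted p = 0.28). Airn, the antisense noncoding RNA that overlaps Igf2r by 28354 bases and silences the paternal copy in mouse, averaged 0.152 ± 0.0648 CPM in acetate, 0.201 ± 0.0489 CPM in ethanol and 0.339 ± 0.237 CPM in control. These values rest on 3 to 24 reads per library.

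The balance of the receptors separated the groups. Per kilobase of exon, the ratio of Igf2r to Igf1r was 6.69 to 6.93 in acetate libraries, 7.11 to 8.23 in ethanol libraries and 8.95 to 9.25 in control libraries. The means were 6.78 ± 0.132, 7.78 ± 0.594 and 9.09 ± 0.154 (SD, n = 3 each), and no range overlapped another. This ratio was chosen after its values were seen and carries no test.

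Among the binding proteins, Igfbp2 had the largest acetate-to-ethanol difference of the family. It encodes a binding protein that prefers IGF-II and carries an RGD motif that can bind integrins, and it lies on chromosome 1 (chr1:72824503-72852474, plus strand). Its level was 108, 139 and 87.4 CPM in acetate libraries, 43.6, 37.3 and 31.4 CPM in ethanol libraries and 81.7, 68.1 and 68.8 CPM in control libraries. The 3 groups did not overlap in any pair, with acetate highest and ethanol lowest.

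Igfbp2 fell in ethanol against control by 0.95 on the log2 scale (SE 0.19, 95% interval -1.37 to -0.53, limma adjusted p = 0.026), which is 0.514 times the control mean. It was higher in acetate than in ethanol by 1.53 ± 0.19 (SE, 95% interval 1.12 to 1.95, adjusted p = 0.0037), a ratio of means of 2.97. Acetate against control was 0.58 ± 0.19 (adjusted p = 0.20) and did not pass the threshold, and it was 0.41 without acetate replicate 2. Acetate replicate 2 was 0.52 log2 units above the other acetate libraries, where the 539 tested genes with at least 60% GC had a median difference of 0.53, and Igfbp2 has 62.1% GC. Without that library acetate against ethanol was 1.36 ± 0.14 (adjusted p = 0.00062), in a range of 6.5e-61 to 0.038 over the alternatives, all past the threshold.

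The ethanol call of Igfbp2 was lost when any of 5 libraries was left out. Leaving out ethanol replicate 2 gave an adjusted p of 0.12, ethanol replicate 3 gave 0.11, control replicate 1 gave 0.14, control replicate 2 gave 0.078 and control replicate 3 gave 0.076, none past the threshold. The difference in those fits lay between -0.996 and -0.83. Its range over all alternatives was 1.1e-42 to 0.14.

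Igfbp7, a relative of the family that binds IGFs weakly and also binds insulin, lies on chromosome 5 (chr5:77349240-77408041, minus strand). It stood at 28.7, 27.4 and 25.3 CPM in acetate libraries, 17.6, 16.1 and 18.0 CPM in ethanol libraries and 34.8, 34.0 and 35.3 CPM in control libraries. No pair of groups overlapped, with control highest, acetate between and ethanol lowest.

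Igfbp7 fell in ethanol against control by 0.97 on the log2 scale (SE 0.10, 95% interval -1.20 to -0.74, limma adjusted p = 0.0021), which is 0.496 times the control mean. This call was kept in all 24 alternatives, with adjusted p of 3.5e-36 to 0.022. It was higher in acetate than in ethanol by 0.63 ± 0.10 (SE, 95% interval 0.40 to 0.86, adjusted p = 0.011), a ratio of means of 1.58. Acetate against control was -0.35 ± 0.10 (adjusted p = 0.17). The acetate-to-ethanol call did not hold without ethanol replicate 1 (adjusted p = 0.055), without ethanol replicate 2 (0.082), with only the 6 libraries compared (0.076) or with the GC trend removed (0.44 ± 0.13, 0.067), in a range of 7.2e-10 to 0.082. Acetate replicate 2 was 0.02 log2 units from the other acetate libraries for this gene, and without it the difference was 0.62 (adjusted p = 0.0033).

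Igfbp2 and Igfbp7 thus differed in where the acetate libraries lay, above control for Igfbp2 and below control for Igfbp7. Neither of these differences from control passed the threshold. Ethanol was the lowest group for both genes. Among 10932 tested genes that averaged 5 CPM or more, the profile most like that of Igfbp2 over the 9 libraries was that of Clu, which encodes the secreted chaperone clusterin. The root mean square difference of the centred log2 profiles was 0.162, beside a median of 0.698 over all genes compared. Clu averaged 40.5 ± 4.80 CPM in acetate, 13.1 ± 2.40 CPM in ethanol and 30.1 ± 1.18 CPM in control (SD, n = 3 each). The next was Slc14a2, a urea transporter gene, with a difference of 0.177 and 11.5 ± 3.70, 4.09 ± 0.308 and 7.49 ± 0.733 CPM in the same groups.

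The profile most like that of Igfbp7 was Ccdc80, a secreted matrix protein gene, with a root mean square difference of 0.0757 beside a median of 0.463. Ccdc80 averaged 198 ± 12.2 CPM in acetate, 136 ± 6.92 CPM in ethanol and 281 ± 19.1 CPM in control. The next was Reck, which encodes a membrane-anchored inhibitor of matrix metalloproteinases, at 0.0826, with 29.5 ± 1.35, 19.7 ± 0.344 and 34.7 ± 0.554 CPM in acetate, ethanol and control. These likenesses describe 9 libraries and carry no test. The genes were picked as the nearest, so their distances had to lie below the median.

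Igfbp3, which carries most IGF in blood together with the acid-labile subunit, lies on chromosome 11 (chr11:7206086-7213923, minus strand). It was the family gene with the largest positive value in acetate against control. Its level was 38.8, 34.4 and 45.7 CPM in acetate libraries, 27.9, 28.5 and 28.3 CPM in ethanol libraries and 24.1, 21.6 and 28.5 CPM in control libraries. Every acetate library was above all 6 others, and ethanol overlapped with control. The log2 fold change was 0.66 ± 0.14 (95% interval 0.34 to 0.97, limma adjusted p = 0.067) in acetate against control, 0.19 ± 0.14 (adjusted p = 0.51) in ethanol against control and 0.46 ± 0.14 (adjusted p = 0.11) in acetate against ethanol. Without acetate replicate 2, the lowest acetate library, acetate against control was 0.75 ± 0.12 (adjusted p = 0.010) and acetate against ethanol 0.56 ± 0.12 (adjusted p = 0.018), both past the threshold. Over the alternatives these adjusted p ranged from 1.6e-14 to 0.30 and from 3.9e-08 to 0.29.

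Igfbp1, which lies 3539 bases from Igfbp3 and is known as a liver gene that insulin represses, had 0 reads in 7 of the 9 libraries and 1 read in each of the other 2. Igfals, the acid-labile subunit gene, averaged 0.0821 ± 0.0716 CPM in acetate, 0.0444 ± 0.0427 CPM in ethanol and 0.172 ± 0.00661 CPM in control. Both were below the filter and were not tested.

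Igfbp6, a binding protein with a strong preference for IGF-II, lies on chromosome 15 (chr15:102144362-102149511, plus strand). Its level was 72.7, 103.6 and 58.4 CPM in acetate libraries, 47.9, 48.2 and 39.9 CPM in ethanol libraries and 85.7, 83.8 and 71.9 CPM in control libraries. Ethanol was the lowest group, with no overlap with the others, while acetate spread across the whole control range. Ethanol against control was -0.82 ± 0.20 (adjusted p = 0.053), and acetate against ethanol was 0.74 ± 0.20 (adjusted p = 0.074). Acetate against control was -0.08, and -0.30 without acetate replicate 2 (adjusted p = 0.25). Acetate replicate 2 was 0.66 log2 units above the other acetate libraries, near the median of 0.53 of genes in its class of at least 60% GC, and Igfbp6 has 60.7%. Without that library ethanol against control had an SE of 0.11 and an adjusted p of 0.0012, and acetate against ethanol was 0.52 ± 0.12 (adjusted p = 0.030). The ranges over the alternatives were 1.1e-31 to 0.22 and 6.2e-11 to 0.26. Without acetate replicate 3 acetate against ethanol had an adjusted p of 0.028.

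Igfbp4, a mostly inhibitory binding protein that the protease PAPP-A cleaves, lies on chromosome 11 (chr11:99041244-99054392, plus strand). It ranged over 187 to 197 CPM in acetate, 139.8 to 170.5 CPM in ethanol and 199 to 245 CPM in control libraries. No pair of groups overlapped. Ethanol against control was -0.49 ± 0.12 (adjusted p = 0.057), acetate against control was -0.19 ± 0.12 (adjusted p = 0.44) and acetate against ethanol was 0.30 ± 0.12 (adjusted p = 0.21).

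Igfbp5, which binds to extracellular matrix and is abundant in bone, lies on chromosome 1 (chr1:72857932-72874884, minus strand), tail to tail with Igfbp2 and 5457 bases from it. It had the highest level of the family per kilobase of exon in every group, and stood at 9105, 8693 and 10322 CPM in acetate libraries, 6851, 6649.8 and 7096 CPM in ethanol libraries and 8412, 8101 and 9706 CPM in control libraries. The ethanol libraries were below all others, and acetate overlapped with control. Ethanol against control was -0.34 ± 0.13 (adjusted p = 0.18), and 0.13 under quantile scaling. Acetate against ethanol was 0.45 ± 0.13 (adjusted p = 0.091), and acetate against control was 0.10 ± 0.13 (adjusted p = 0.66). Under quantile scaling these were 0.073 (adjusted p = 0.71) and 0.20 (adjusted p = 0.42), and without acetate replicate 2 acetate against control was 0.15. Its neighbour Igfbp2 had differences of -0.95 in ethanol against control, 1.53 in acetate against ethanol and 0.58 in acetate against control.

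With replicate number as a block in the fit, more of the family passed the threshold. In ethanol against control the block called 6 of 10, all lower, where it called 5.07% of all tested genes lower. Adjusted p was 0.022 for Igf2, 0.048 for Igf2r, 0.016 for Igfbp2, 0.027 for Igfbp4, 0.020 for Igfbp6 and 0.0032 for Igfbp7. In acetate against ethanol it called 5 of 10, all higher, where it called 4.67% of all tested genes higher. Adjusted p was 0.038 for Igf1r, 0.0048 for Igfbp2, 0.033 for Igfbp5, 0.030 for Igfbp6 and 0.015 for Igfbp7. Fold changes were the same in both fits, and Igf1 and Igfbp3 were called in neither comparison.

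Without acetate replicate 2 the count in ethanol against control was 7 of 10, all lower, where 11.3% of all tested genes were called lower. The 7 were Igf1, Igf2 (adjusted p = 0.0077), Igf2r (0.0092), Igfbp2 (0.0012), Igfbp4 (0.0076), Igfbp6 and Igfbp7 (0.00013). In acetate against ethanol it was 5 of 10, all higher, where 5.72% were called higher, and these were Igf1r, Igfbp2, Igfbp3, Igfbp6 and Igfbp7. In acetate against control it was 1 of 10, Igfbp3, where 1.95% were called higher. With only the 6 libraries compared, ethanol against control called the same number, 7, where 14.6% of all tested genes were called lower.

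**Figure D3:**
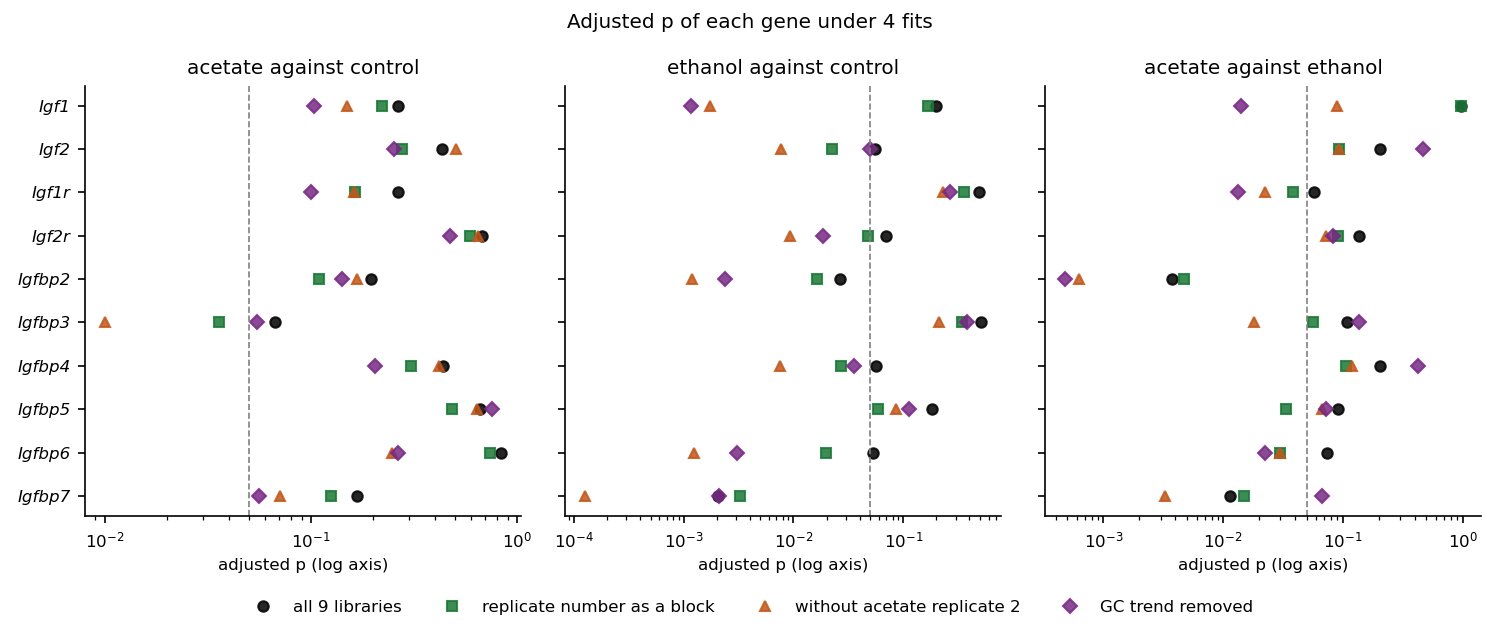
Adjusted p (x axis, log scale) of the 10 family genes in 3 comparisons under 4 limma fits, with a dashed line at 0.05: all 9 libraries, replicate number as a block, without acetate replicate 2, and with each library's GC trend removed. In ethanol against control Igfbp2 and Igfbp7 lie left of the line in all 4 fits, and 7 genes do so without acetate replicate 2.

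**Figure D4:**
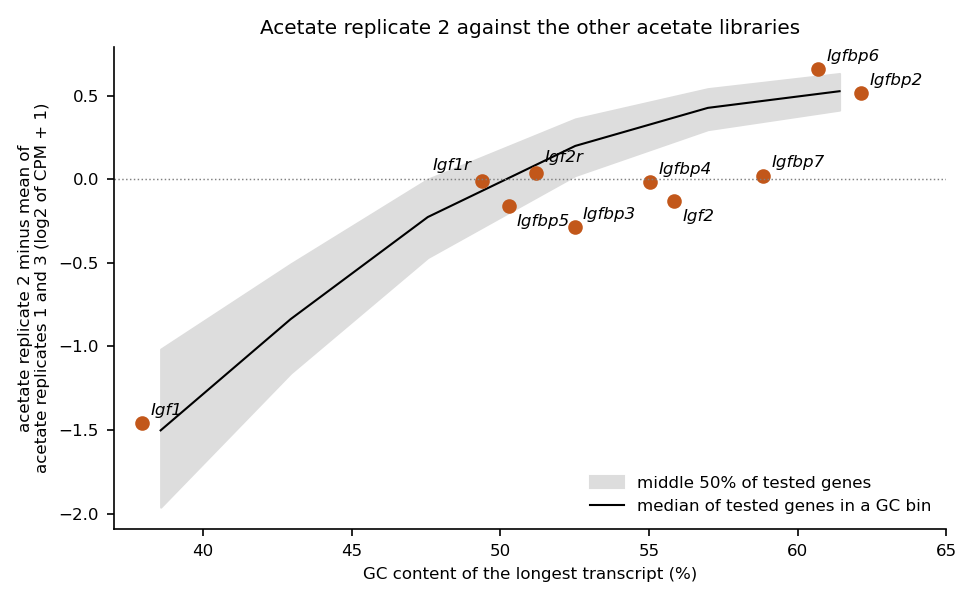
Difference of acetate replicate 2 from the mean of the other 2 acetate libraries (y axis, log2 of CPM plus 1) against GC content of the longest transcript (x axis, percent), with the median and middle 50% of tested genes in GC bins and the 10 family genes as points. Igf1 lies at -1.46 near the low-GC end of the trend, Igfbp2 at 0.52 and Igfbp6 at 0.66 near its high-GC end, and Igfbp7 at 0.02 below it.

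The deviation of acetate replicate 2 was a trend over the whole library. Across 12750 tested genes with known GC content the correlation of the difference with GC was 0.81, as a description of 1 library. The bin medians ran -1.50 below 40% GC, -0.84 at 40 to 45%, -0.23 at 45 to 50%, 0.20 at 50 to 55%, 0.43 at 55 to 60% and 0.53 above. Igf1r, at 49.4% GC, had a difference of -0.01, above its bin's median. Igf2r at 51.2% GC was at 0.04, Igfbp5 at 50.3% was at -0.16 and Igfbp3 at 52.5% was at -0.29, all below the median of their bin. Igf2 at 55.8% was at -0.13, Igfbp4 at 55.1% was at -0.02 and Igfbp7 at 58.8% was at 0.02, below their bin's median as well.

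Levels per kilobase of exon set genes beside each other, with the length of a gene taken over all its annotated exons. Which transcripts were expressed was not examined, so the order, ratios and shares across genes depend on those lengths. In control cells Igfbp5 was at 1455 ± 142 CPM per kilobase, Igf2r at 74.6 ± 5.87, Igfbp6 at 72.4 ± 6.74, Igfbp4 at 49.7 ± 5.28, Igf2 at 47.1 ± 4.38, Igfbp2 at 39.4 ± 4.14 and Igfbp7 at 28.7 ± 0.553 (SD, n = 3 each). Igf1r at 8.21 ± 0.782, Igfbp3 at 7.91 ± 1.12 and Igf1 at 7.91 ± 1.45 closed the order, and these 3 overlapped. Igf2r and Igfbp6 overlapped as well, as did Igf2 with its neighbours in the order, Igfbp4 and Igfbp2. In acetate cells Igfbp2 was at 60.2 ± 14.1 and Igf1 at 4.46 ± 2.23 CPM per kilobase, and in ethanol cells Igfbp2 was at 20.3 ± 3.28 and Igf1 at 4.07 ± 0.454.

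Igfbp5 made up most of the binding protein message. Per kilobase it was 88.1 ± 2.50% of the summed 6 binding proteins in acetate, 90.5 ± 0.521% in ethanol and 88.0 ± 1.09% in control (SD, n = 3 each). The sum was 1770 ± 112 CPM per kilobase in acetate, 1263 ± 36.3 in ethanol and 1653 ± 141 in control, and without Igfbp5 it was 209 ± 33.0, 119.6 ± 5.40 and 198 ± 7.27 in those groups. Igfbp2 took 3.44 ± 0.978% of the sum in acetate, 1.61 ± 0.277% in ethanol and 2.40 ± 0.348% in control. Igfbp3 took 0.713 ± 0.0610% in acetate and 0.715 ± 0.0246% in ethanol, against 0.477 ± 0.0276% in control. The share of Igfbp3 thus lay above control in both exposed groups, although its own level overlapped between ethanol and control. Without acetate replicate 2 the acetate mean was 191 CPM per kilobase for the sum without Igfbp5 and 2.94% for the share of Igfbp2. These shares were not tested.

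**Figure D5:**
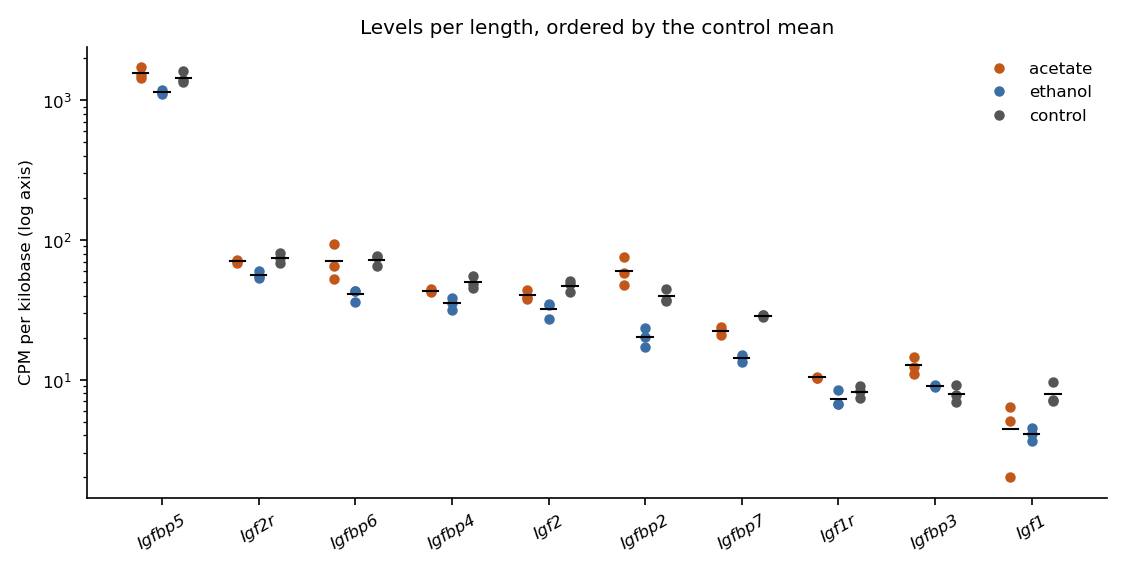
CPM per kilobase of exon (y axis, log scale) of each family gene, ordered by the control mean, with 1 point per library and a bar at the mean of the acetate, ethanol and control groups. Igfbp5 stands at 1107 CPM per kilobase or more in every library and the next gene, Igf2r, has a control mean of 74.6.

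The genes that act around the family were counted in lists of known pathway members. The share of all tested genes called, 1.00% in acetate against control, 3.93% in ethanol against control and 3.73% in acetate against ethanol, stands beside each count below, and 1 call in a list of 7 to 27 genes is not a result about that list. Among proteases that cleave IGF binding proteins and their regulators, 15 of 19 genes were tested. In acetate against ethanol 5 of the 15 were called higher and 0 lower, where 2.84% of all tested genes were called higher. The median log2 fold change was 0.38 beside -0.01 over all tested genes. Pappa2, a metalloprotease that cleaves IGFBP-3 and IGFBP-5, was at 108, 86.5 and 94.0 CPM in acetate libraries and 50.8, 64.5 and 52.8 CPM in ethanol libraries, without overlap. Its log2 fold change was 0.77 ± 0.15 (SE, limma adjusted p = 0.022), and its control libraries were at 83.8, 96.5 and 73.7 CPM. Stc2, stanniocalcin 2, an inhibitor of the pappalysin proteases, averaged 37.6 ± 5.64 CPM in acetate, 23.0 ± 2.42 CPM in ethanol and 24.4 ± 2.19 CPM in control (SD, n = 3 each). Its log2 fold change in acetate against ethanol was 0.68 ± 0.14 (adjusted p = 0.033).

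The serine protease gene Htra1 averaged 183 ± 35.6 CPM in acetate, 108 ± 4.10 CPM in ethanol and 148 ± 5.16 CPM in control. Its acetate-to-ethanol log2 fold change was 0.73 ± 0.14 (limma adjusted p = 0.023). The lysosomal protease gene Ctsl averaged 281 ± 39.0 CPM in acetate, 178 ± 14.2 CPM in ethanol and 248 ± 23.5 CPM in control (acetate against ethanol 0.65 ± 0.13, adjusted p = 0.031). The fifth was Mmp2, gelatinase A, at 740.3, 818 and 606 CPM in acetate and 488, 501 and 468 CPM in ethanol (0.56 ± 0.13, adjusted p = 0.044). Its control libraries were at 733, 677 and 708 CPM. For Pappa2, Htra1, Ctsl and Mmp2 acetate overlapped with control, and every ethanol library was below every control library. For Stc2 acetate was above control, and ethanol overlapped with control. In ethanol against control 1 of the 15 rose and 1 fell, and the median was -0.31. Plat, tissue plasminogen activator, rose by 0.44 ± 0.10 (adjusted p = 0.045), with 75.6 ± 3.72 CPM in ethanol and 55.5 ± 3.38 CPM in control. The lower one was Mmp13, the collagenase of hypertrophic cartilage, which averaged 0.608 ± 0.339 CPM in acetate, 0.587 ± 0.165 CPM in ethanol and 2.07 ± 0.198 CPM in control. Its adjusted p was 0.032 in acetate against control, where it was the 1 call of the list, and 0.014 in ethanol against control. Mmp13 passed the filter of 1 CPM only through the control group, so it had to differ to be tested, and these 2 calls support nothing about the list.

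Among 27 genes of IGF receptor signalling, all tested, 1 fell in each exposed group against control, and 0 were called in acetate against ethanol. Its median log2 fold changes were 0.04, -0.01 and 0.11 in acetate against control, in ethanol against control and in acetate against ethanol. The gene was Grb10 in both cases, an imprinted adaptor that restrains signalling from the insulin and IGF-I receptors. It averaged 12.6 ± 4.30 CPM in acetate, 14.4 ± 3.48 CPM in ethanol and 31.2 ± 2.84 CPM in control (SD, n = 3 each). The log2 fold change was -1.30 ± 0.25 (limma adjusted p = 0.0495) in acetate and -1.09 ± 0.25 (adjusted p = 0.046) in ethanol. The insulin receptor gene Insr averaged 44.3 ± 7.11 CPM in acetate, 39.5 ± 4.77 CPM in ethanol and 50.8 ± 3.03 CPM in control.

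Of 8 tested regulators of IGF messenger RNA and transcription, 1 rose in acetate against control and 0 were called in the other comparisons. It was Igf2bp2, which encodes an RNA-binding protein of Igf2 message, at 32.4 ± 2.54 CPM in acetate and 18.0 ± 2.19 CPM in control (0.82 ± 0.14, limma adjusted p = 0.035). Of 7 tested IGFBP-related and CCN proteins, 1 was called higher in acetate than in ethanol. It was Ccn1, a matricellular protein gene, at 169 ± 38.9 CPM in acetate and 95.2 ± 10.8 CPM in ethanol (0.80 ± 0.18, adjusted p = 0.043). Ccn1 averaged 139 ± 15.3 CPM in control, which overlapped with acetate and lay above every ethanol library. Of 8 genes of the growth hormone receptor axis 0 were called in the fit of all 9 libraries without the block. Ghr itself averaged 19.8 ± 8.70 CPM in acetate (24.8 CPM without replicate 2), 25.2 ± 2.71 CPM in ethanol and 24.4 ± 2.66 CPM in control.

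Of 16 tested targets of FOXO factors and insulin repression, 1 rose in acetate against control, and 1 rose and 1 fell in ethanol against control. In acetate against ethanol 2 were called higher. Gadd45a, a stress-response gene and FOXO target, was at 38.0 ± 2.52 CPM in acetate, 45.1 ± 2.86 CPM in ethanol and 25.7 ± 0.650 CPM in control. It rose by 0.55 ± 0.10 (limma adjusted p = 0.048) in acetate and by 0.79 ± 0.10 (adjusted p = 0.0049) in ethanol against control. Klf15, a transcription factor gene of nutrient metabolism, was lowest in ethanol, with 10.1 ± 1.66 CPM in acetate, 5.26 ± 0.364 CPM in ethanol and 8.74 ± 0.838 CPM in control. It fell by 0.64 in ethanol against control (adjusted p = 0.036) and was higher by 0.82 ± 0.14 in acetate than in ethanol (adjusted p = 0.012). Bcl6, a transcriptional repressor gene, averaged 63.9 ± 0.437 CPM in acetate, 45.4 ± 1.93 CPM in ethanol and 47.9 ± 2.24 CPM in control. It was higher by 0.48 ± 0.10 in acetate than in ethanol (adjusted p = 0.026), and ethanol overlapped with control.

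These list calls lay close to the threshold. Of the 17 calls of named list genes, 2 of them those of Mmp13, 16 were lost in at least 1 alternative, and leaving out single libraries was among the losing settings for each of the 16, with adjusted p up to 0.26. Leaving out acetate replicate 2 ended none of them. The call kept in all alternatives was Gadd45a in ethanol against control, with adjusted p of 2.3e-26 to 0.043. The count of 5 for the list of proteases and their regulators, which includes the inhibitor gene Stc2, ran between 0 and 5 when single libraries were left out. That is the count in acetate against ethanol, and it was 5 without acetate replicate 2 and with the replicate block.

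The replicate block moved the list counts in the paired comparisons. Between ethanol and control the block called 8.35% of all tested genes. It called 2 receptor signalling genes lower, 3 protease list genes lower and 1 higher, and 1 regulator of IGF messenger RNA higher. It also called 1 CCN list gene lower, 1 growth hormone axis gene higher, and 2 FOXO targets higher and 1 lower. The 3 lower protease list genes include Mmp13, which had to differ to be tested, so that call supports nothing about the list. Between acetate and ethanol, where the block called 6.40%, all list calls were higher. They were 1 in the signalling list, 5 in the protease list, 1 among the messenger RNA regulators and 2 in the CCN list. The growth hormone axis had 0 and the FOXO targets had 3.

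Without acetate replicate 2, 21.5% of all tested genes were called in ethanol against control, 11.3% lower. In that fit 5 of 27 receptor signalling genes, 6 of 15 protease list genes, 3 of 7 CCN list genes and 4 of 16 FOXO targets were lower. Those called higher were 1 protease list gene, 1 messenger RNA regulator, 1 growth hormone axis gene and 2 FOXO targets. Mmp13, which had to differ to be tested, was among the 6 lower protease list genes, and its call supports nothing about the list. Between acetate and ethanol 8.61% of all tested genes were called. There 3 signalling genes, 5 protease list genes, 3 CCN list genes and 4 FOXO targets were higher and 0 list genes were lower. In acetate against control, where 3.48% were called, 1 signalling gene rose and 1 fell, 1 protease gene, Mmp13, was lower, and 1 messenger RNA regulator and 2 FOXO targets were higher.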

How the data were processed

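RNA from ATDC5 cells was isolated with Trireagent and made into libraries with a stranded Illumina mRNA kit, per the labels. The authors deposited 1 table with 26202 genes and 9 libraries, which holds log2 values that are TMM-normalised per the file name. The submitters' processing notes list Partek, STAR 2.7.8a, Bowtie2 2.2.5 and the genome build mm10 without saying what each was used for, and give neither the annotation nor the counting method. The deposited log2 values were raised to a power of 2 and freed of each library's floor, which corresponds to an offset of 1e-05 read. This gave TMM-scaled CPM, in which all levels in the text are expressed. Between 86.2% and 87.9% of values of 1 to 20 recovered reads per library were whole within 0.02 read, so counting was partly fractional and no count model was used as the main test.

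The 12868 genes that averaged 1 CPM or more were tested. Log2 of CPM plus 1 was modelled in R 4.3.3 by limma 3.58.1, with a mean for each group, a variance per gene shared by all 9 libraries, a mean trend and Benjamini-Hochberg adjustment over all genes tested. Fold changes on that scale understate the change of low genes. Alternatives changed the pseudocount, filter, scaling, variance model, library weights, replicate block, GC trend, count model (voom on the recovered reads) and the libraries in the fit. Positions, exon lengths and GC content were read from GENCODE M21, whose build GRCm38 is that of mm10, where 24919 genes matched by symbol, 467 by synonym and 816 not at all. Promoters of all 10 genes came from RefSeq on GRCm38.p6, taking the window nearest the GENCODE start where a gene had several. Summaries were made with pandas 2.3.3 in Python 3.11.15.

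Replicate numbers come from the labels. Across the tested genes, deviations of same-numbered libraries from their group means had correlations of 0.55, 0.36 and 0.67 between ethanol and control, and of 0.15, 0.25 and 0.61 between acetate and ethanol. The numbers were therefore taken to pair those libraries, and the calls with replicate number as a block are given for the members and the pathway lists.

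The family members, pathway lists and markers were chosen with earlier results of these data known. Besides the 10 members, the text names up to 4 called genes per pathway list and comparison with the smallest adjusted p, and the 2 genes most like each called member. Mmp2, Insr, Ghr and the genes beside a member on the genome, or known to work with its product, were named outside that rule after their values were seen.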

Additional observations from a re-analysis of the deposited data

How the results depend on the processing

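Each of the 30 gene differences of the family was recomputed under 24 alternatives, which gave 720 values. Of these, 603 kept their direction and their side of the threshold, 98 passed it in the same direction where the reported fit did not, 9 no longer passed and 10 had the opposite sign. In acetate against control the count of called members was 0, and it was 1 under quantile scaling (0.777% of all tested genes called), 5 with library weights (39.0%), 1 with the replicate block (2.28%), 7 with the GC trend removed and the block (14.1%), 8 with the block and acetate replicate 2 left out (21.5%), and 0 to 1 with single libraries left out (0.00% to 3.48%). In ethanol against control it was 2, and it was 5 with median-of-ratios scaling (4.06%), 10 with library weights (54.1%), 6 with the replicate block (8.35%), 7 with the GC trend removed (14.0%), 8 with that and the block (31.3%), 10 with the block and acetate replicate 2 left out (50.2%), 7 with only the 6 libraries compared (26.8%), and 1 to 7 with single libraries left out (0.762% to 21.5%). In acetate against ethanol it was 2, and it was 10 with library weights (28.8%), 5 with the replicate block (6.40%), 4 with the GC trend removed (9.72%), 8 with that and the block (25.7%), 10 with the block and acetate replicate 2 left out (33.1%), 1 with only the 6 libraries compared (0.832%), and 1 to 5 with single libraries left out (0.80% to 8.61%). Igf1 in acetate against ethanol, -0.02 as reported, was 0.034 under quantile scaling, 0.44 with library weights, 0.58 with the GC trend removed, 0.58 with that and the block, 0.50 with the block and acetate replicate 2 left out, and -0.34 to 0.47 with single libraries left out. Under quantile scaling Igf2r in acetate against control was 0.0052 and Igfbp5 in ethanol against control was 0.13, and Igfbp6 in acetate against control ran from -0.30 to 0.11 with single libraries left out. The cause of these shifts was not tested. Between acetate and control, libraries of replicates 1, 2 and 3 had correlations of 0.25, -0.10 and 0.41, and 3 of 6 correlated best with their own number. The -0.10 involves acetate replicate 2. These correlations alone do not decide whether acetate and control were paired, and the block was fitted over all 9 libraries at once. With the replicate block Igfbp3 was called in acetate against control, with a limma adjusted p of 0.036. The estimation of library weights stopped before its tolerance was reached, and the smallest adjusted p of the block with acetate replicate 2 left out are no measure of strength. The lowest count behind a family value was 619 reads, and with 3 libraries a group 1 library could decide a call.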
